A study of Homo sapiens with 52 samples.

Results

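Contacts of chromosome 10 with the nuclear lamina were examined cell by cell in KBM7, a human line from a chronic myeloid leukaemia. All 100 kb bins of this chromosome with a value in every cell were taken, which gave 1307 bins of the 26584 measured over the genome, on build hg19. The file lists 1356 bins for the chromosome, and the other 49 held no value in any cell. The cells came from clone 14, a clone with ploidy 2N that carries Dam, a bacterial adenine methyltransferase, fused to Lamin B1, and they formed 1 group. All received 0.5 nM Shield1 over 15 h to induce methylation. Cells that carried both Fucci cell cycle markers and were among the 2% smallest were sorted singly, and their DNA was amplified with 21 extension steps. Of the 52 cells in the labels, the 51 with a column were used. The labels name no separate cultures. All cells together are therefore 1 sample of 1 clone, no p-value over cells is given, and each SD describes the spread between these cells alone. Both copies of the chromosome share a value, so contact of 1 copy and of both cannot be told apart.

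The lamina is a meshwork of lamin proteins under the inner nuclear membrane. The chromatin that touches it forms lamina-associated domains, which are known to be poor in genes, low in transcription and late in replication, while gene-rich stretches tend to lie inside the nucleus. DamID marks such contacts because the fused Dam methylates adenines in nearby DNA. Genes and sequences were not assigned to bins, since an hg19 annotation or genome was not used here.

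Each value is the observed signal of a bin over its expected signal (OE), and a bin with an OE of 1 or more was called a contact. The contact frequency of a bin is the percentage of the 51 cells with such a contact. The deposited ratios hold whole numbers, called reads here, and the cells had 50978 to 316463 reads over the genome with a median of 142540. On chromosome 10 they had 1663 reads in cell 42, a median of 6632, and 16510 in the highest cell. An OE of 1 in a bin of median expected number stands for 2.19 reads in the shallowest cell and 13.6 in the deepest, so calls of single bins in shallow cells rest on few reads. For 90 bins of the chromosome all cells were without a read, and another 24 had an expected number under 100.

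Chromosome 10 touched the lamina over somewhat less of its length than the rest of the genome did. Contact covered 29.1% ± 5.98 of its bins and 31.6% ± 3.52 of the bins elsewhere (SD, n = 51 cells). The lowest cell had 7.57% on chromosome 10, the median was 30.3%, and the highest cell had 44.8%. Elsewhere in the genome the lowest was 25.0%, the median 31.1% and the highest 40.4%, so the range on chromosome 10 was the wider and enclosed the other. The rest of the genome averages over 25277 bins, and single chromosomes of like size also spread more, with SDs of 6.08 on chromosome 11 and 6.83 on chromosome 12. The difference of -2.55 percentage points ± 4.36 (SD, n = 51) was smaller than the spread between cells, with 38 cells lower on chromosome 10 and 13 higher. Among the 22 chromosomes and joined chromosomes, chromosome 10 ranked 12 by contact share, from the highest, and 13 by the SD of its difference from the rest.

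The chromosomes nearest in number of measured bins are 11, with 1314, and 12, with 1311. Contact on chromosome 10 was 6.00 points ± 5.88 below that on chromosome 11, and lower in 45 of 51 cells. Against chromosome 12 it was 2.00 points ± 7.06 higher, in 31 cells higher and in 20 lower, a difference well inside the spread between cells. Of all values on chromosome 10, 51.4% were 0, 19.5% lay above 0 and under 1, 10.9% lay from 1 to under 2, and 18.2% were at 2 or above. Contacted values had a median OE of 2.37.

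**Figure D1:**
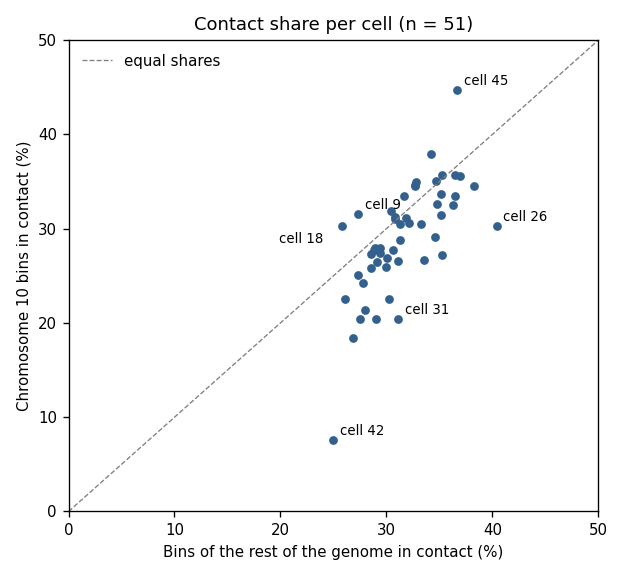
Each point is 1 of the 51 cells, with the percentage of chromosome 10 bins in contact on the vertical axis and that of all other bins on the horizontal axis. Most points lie under the line of equal shares, cell 42 stands alone at 7.57%, and cell 45 is the highest at 44.8%.

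Bins divided into a large part that no cell contacted, a smaller part that nearly all cells contacted, and a variable remainder. Bins touched by 80% or more of the cells are called frequent here. Of chromosome 10, 258 bins (19.7%) were frequent, against 20.9% of bins over the genome. On chromosome 11 the share was 24.0% and on chromosome 12 it was 17.2%. Contact in no cell was found for 533 bins (40.8%), against 38.7% of bins over the genome. For those that held reads, 0 of 51 cells allows a share of cells of up to 5.88%, a limit that covers counting error only. Bins contacted in at most 5% of cells numbered 646 (49.4%), against 46.7% over the genome. Between the extremes, 255 bins (19.5%) were contacted in over 20% and under 80% of cells, against 22.1% over the genome. All of these shares lie close to the genome's. The median expected number was 320.5 in frequent bins and 319 in bins contacted in none that held reads. The 90 bins without a read, all of them contacted in none, have no expected number and are left out of that median. Among chromosome 10 bins with a read, 36.4% were contacted in no cell. Where reads were present, these classes thus differed little in the number that divides the signal.

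Contact lay in blocks that alternated with long empty stretches. Going along the chromosome from the short arm end in windows of 10 Mb, contact covered 24.4% ± 9.13 of the bins in the first window, 27.2% ± 9.20 from 10 to 20 Mb, 32.4% ± 13.4 from 20 to 30 Mb and 20.6% ± 6.80 from 30 to 40 Mb (SD, n = 51). The window from 40 to 50 Mb, which holds much of the centromeric region and only 63 measured bins, had 10.2% ± 7.65. The peak followed directly, with 68.5% ± 9.35 from 50 to 60 Mb, where 69.1% of bins were frequent. Further along the long arm, windows of high and low contact took turns. They had 42.0% ± 11.9 from 60 to 70 Mb, 8.80% ± 5.09 from 70 to 80 Mb, 43.1% ± 6.96 from 80 to 90 Mb and 11.6% ± 5.59 from 90 to 100 Mb. Contact was 35.5% ± 6.76 from 100 to 110 Mb and 43.6% ± 8.32 from 110 to 120 Mb, and it was 12.8% ± 10.7 from 120 to 130 Mb and 12.1% ± 10.7 beyond 130 Mb.

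**Figure D2:**
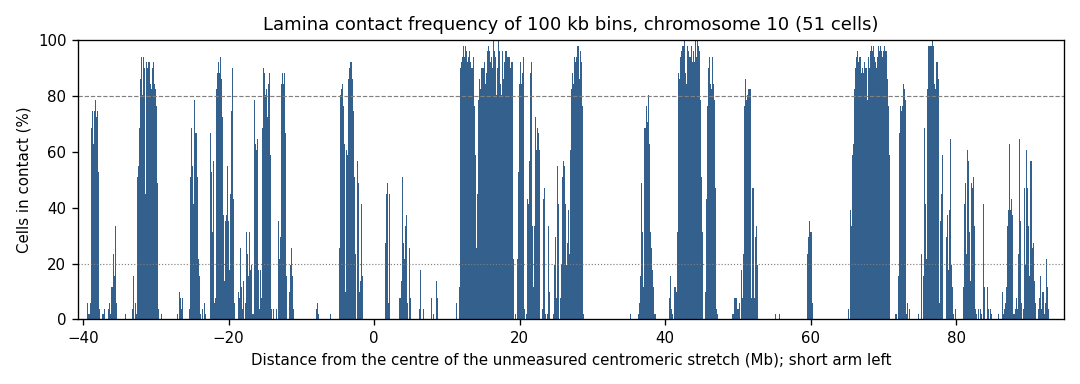
The height of each bar is the percentage of the 51 cells in contact at a 100 kb bin, and the horizontal axis is the distance in Mb from the centre of the unmeasured stretch at the centromere. Dashed and dotted lines mark 80% and 20%. The widest block of frequent contact begins about 10 Mb into the long arm, and a further pair of wide blocks stands beyond 40 Mb and beyond 60 Mb.

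The stretches of most frequent contact lay on the long arm. Frequent bins formed 27 runs with a median length of 0.500 Mb. The longest covered 4.70 Mb, from 55100001 to 59800000. Over its 47 bins, contact covered 40.4% in the lowest cell, 97.9% at the median and 100% in the highest, with a mean of 92.6% ± 11.2 (SD, n = 51). It was contacted over its whole length in 14 cells and its mean OE was 2.66. A short gap separates it from another of these runs, from 52500001 to 54500000, which was contacted in 94.1% ± 15.2 of its bins and in full in 31 cells. Cell 42 had no contact in that second run, and the other 50 cells contacted at least 50% of it.

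The other 3 of the 5 longest runs lay further out on the long arm. The run from 82500001 to 85600000, 3.10 Mb long, was contacted in 94.3% ± 8.98 of its bins, from 64.5% in cell 42 through a median of 96.8% to 100%. From 108700001 to 111400000 the lowest cell, 11, had 66.7%, the median was 100% and the mean 94.6% ± 8.36, with 27 cells in full contact. The run from 106700001 to 108500000 had 11.1% in cell 42, a median of 100% and a mean of 90.6% ± 17.4. Each of these 5 runs was thus contacted in part by every cell, except the run from 52500001 to 54500000 in cell 42. At an OE of at least 2 they were contacted in 68.3% to 75.7% of their bins.

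A total of 13 bins were contacted in all 51 cells, which is 0.995% of the chromosome's bins, against 0.824% over the genome. The lower exact limit of the share of cells is 93.0% for each, without regard to the bins having been picked for it. They lay in 4 blocks. Of these bins, 6 lay between 56200001 and 58500000, 3 between 83400001 and 85200000, 2 between 109000001 and 109500000, and 2 side by side from 117400001 to 117600000. The bin with the highest mean OE among them, from 83400001 to 83500000, had an OE of 1.16 in cell 51, a median of 3.56 and 10.6 in cell 8. The smallest number of reads behind any of these contacts was 3, in the bin from 57800001 to 57900000.

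The longest empty stretches exceeded the longest contacted ones, though the typical empty run was the shorter. Bins contacted in at most 5% of cells formed 83 runs with a median of 0.3 Mb, of which 25 were 1 bin long and the longest covered 7.70 Mb, from 69500001 to 77200000. Contact there covered 0.102% ± 0.438 of its 77 bins (SD, n = 51), which rests on 4 contacts in all, and 48 cells had none. The run from 93500001 to 100200000, 6.70 Mb long, also held 4 contacts and was empty in 48 cells, and the run of 5.00 Mb from 101100001 to 106100000 held 2 contacts and was empty in 49. On the short arm, the runs from 29600001 to 32900000 and from 33000001 to 35900000 held 5 and 4 contacts. Their highest value was in cell 22, with 6.06% and 6.90% of bins. Reads were rare but not absent in these runs. The longest run held 353 reads over all cells, against 36812 in the run from 55100001 to 59800000, which is shorter. In the longest run 26 bins were without a read throughout, so their expected number could not be found.

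Variable stretches were short. Bins contacted in over 20% and under 80% of cells formed 91 runs with a median length of 0.200 Mb. The longest, from 1800001 to 2900000 near the short arm end, covered 1.10 Mb. Its contact was 68.8% ± 32.8 of its bins (SD, n = 51), with a median of 81.8%, 14 cells in full contact and 4 with none. The run from 121800001 to 122600000 had a mean of 39.5% ± 34.9 and a median of 25.0%, with 4 cells in full contact and 14 without contact. From 100300001 to 101000000, a short island between the empty runs named above, contact was 30.8% ± 35.7, in full in 3 cells and absent in 22. The run from 127800001 to 128500000 had 43.7% ± 35.8 and that from 15900001 to 16500000 had 62.1% ± 36.1. In all 5, single cells covered the whole range from 0% to 100%.

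Several blocks began or ended abruptly. The step in contact frequency was taken as the difference between the means of 5 bins on each side of a border. The largest step lay at 52500000, where contact was 91.8% on the side towards the long arm end and 3.53% on the side towards the centromere. This step had the same direction in 50 of 51 cells, and cell 42 had no step. At 69400000 contact was 6.27% on the distal side and 89.8% on the proximal side, in the same direction in all 51 cells. At 111600000 it was 0% distally and 81.6% proximally, with the direction shared by 49 cells. The block that ends at 59900000 had 9.02% on its distal side and 88.6% on its proximal side, again in the same direction in all 51 cells. On the short arm the largest step was at 36000000, with 82.7% on the centromere's side and 5.10% on the other side, in 49 cells. The 2 cells without this step included cell 42.

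The longest inner stretches without values, which were equally long and parted by 1 measured bin, were joined and used to divide the arms. The joined stretch, called unmeasured here, runs from 39200001 to 42300000. In hg19 such a stretch holds the centromere. The measured bin inside it was assigned to neither arm. Contact covered 26.3% ± 8.52 of the 391 bins of the short arm and 30.3% ± 5.79 of the 915 bins of the long arm (SD, n = 51). The short arm ranged from 0% through a median of 27.1% to 44.5%, and the long arm from 10.8% through 29.9% to 44.9%. The difference of -4.00 points ± 6.70 was smaller than the spread between cells and was negative in 36 of them. Frequent bins made up 13.8% of the short arm and 22.3% of the long arm.

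Chromosome ends were contacted less than the interior. In the outer 5 Mb at either end, contact covered 13.3% ± 7.37 of 100 bins, against 30.4% ± 6.06 of the bins between, and all 51 cells had this direction (difference -17.1 points ± 5.73). No bin of the ends was frequent. The short arm end had 17.3% ± 9.63 and the long arm end 9.33% ± 8.97, with 38 cells higher and 10 lower at the short arm end. With ends of 2 Mb the difference was -26.6 points.

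The sides of the centromere were unlike each other. Within 5 Mb of the unmeasured stretch, the short arm side was contacted in 37.6% ± 12.3 of 50 bins and the long arm side in 13.1% ± 9.99 of 43 bins. The short arm side was higher in 46 of 51 cells, by 24.5 points ± 13.2. Joined, these flanks had 26.3% ± 9.14, against 29.3% ± 5.92 for other bins, a difference of -3.01 points ± 6.48 that was inside the spread between cells. Its size and sign depended on the width taken, with 4.10 points for flanks of 2 Mb and -16.9 points for flanks of 10 Mb.

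In single cells, contact ran on over long distances. The 3747 runs of contact on chromosome 10 had a median length of 0.200 Mb, and 38.8% were 1 bin long. Runs of at least 1 Mb made up 15.7% of the runs and held 57.5% of all contacted bins. The mean run length within a cell was 0.519 Mb ± 0.0956 (SD, n = 51), from 0.3 Mb in cell 42 to 0.750 Mb in cell 45. Chromosome 11 had 0.525 Mb ± 0.117 and chromosome 12 had 0.535 Mb ± 0.148, differences far inside the spread between cells. The longest run of each cell measured 1.80 Mb in cell 42, 4.60 Mb at the median and 7.40 Mb in cell 46. That of cell 46 reached without a break from 52500001 to 59900000 and so joined the blocks on both sides of the gap described above. The longest run of 23 cells overlapped the block from 108700001 to 111400000, and that of 20 cells the block from 55100001 to 59800000.

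A few cells stood apart on chromosome 10. Cell 42 had the lowest share on chromosome 10, with 99 of 1307 bins in contact (7.57%, 95% Wilson interval 6.26% to 9.14%), 17.4 points below the 25.0% of the rest of its genome. The next lowest share on the chromosome was 18.4%. None of the 391 short arm bins was contacted in cell 42, while the next lowest cell had 7.16% of them. Its short arm held 52 reads, against 313 in the next lowest cell and 1706 at the median. The mean OE over the short arm was 0.0223, against 0.212 in the next lowest cell and 0.802 at the median, and no short arm bin went above an OE of 0.541. Its depth was ordinary, with 134913 reads over the genome.

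On the long arm, cell 42 kept part of its contacts. It contacted 10.8% of the long arm's bins, the next lowest cell 20.3% and the median cell 29.9%. Cell 42 contacted 34.9% of the frequent bins of chromosome 10 and 79.1% of the frequent bins elsewhere in its genome. Its OE was 0 in 22.5% of the frequent bins of chromosome 10 and above 0 but under 1 in 42.6%, so many of them held signal under the threshold. The longest run left was that from 109300001 to 111100000. Its deviation from the mean of all cells was -3.60 SDs on chromosome 10 and -4.65 SDs on chromosome 5. It was also more than 2 SDs below the mean on chromosomes 2, 6, 12, 14 and 15, and on chromosome 12 it had 11.2% against a mean of 27.1%. On chromosomes 3, 4, 16 and 18 it was above the mean, so its low contact was shared by several chromosomes but not by all.

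Next below the rest of their genomes were cell 31, by 10.7 points with 20.4% of bins in contact, and cell 26, by 10.1 points with 30.3%. Cells 51, 52 and 7 followed, with differences of -8.63, -8.50 and -8.06 points. Cell 26 was the deepest of all, with 316463 reads, and the one with the highest share elsewhere in its genome, 40.4%. At the other extreme, cell 45 lay 8.09 points above the rest of its genome with 44.8% of bins in contact (95% Wilson interval 42.1% to 47.5%). It contacted all 258 frequent bins. Cells 18 and 9 lay 4.44 and 4.17 points above the rest of their genomes. Cell 9 was the shallowest, with 50978 reads, cell 18 had 80662 and cell 45 had 212898. The Wilson intervals take bins as independent, and since neighbours are not, they are too narrow.

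Over the 51 cells, which differ in depth and for which no separate cultures are named, the share on chromosome 10 followed that of the rest of the genome (Pearson's r = 0.69, Spearman's rho = 0.73). It was also related to the number of reads (r = 0.46, rho = 0.52, r = 0.46 without the 2 cells farthest from the median depth). The difference between chromosome 10 and the rest of the genome had an r of 0.05 and a rho of 0.09 with the number of reads, and an r of 0.16 without those 2 cells. These values are descriptions of the cells and carry no test.

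**Figure D3:**
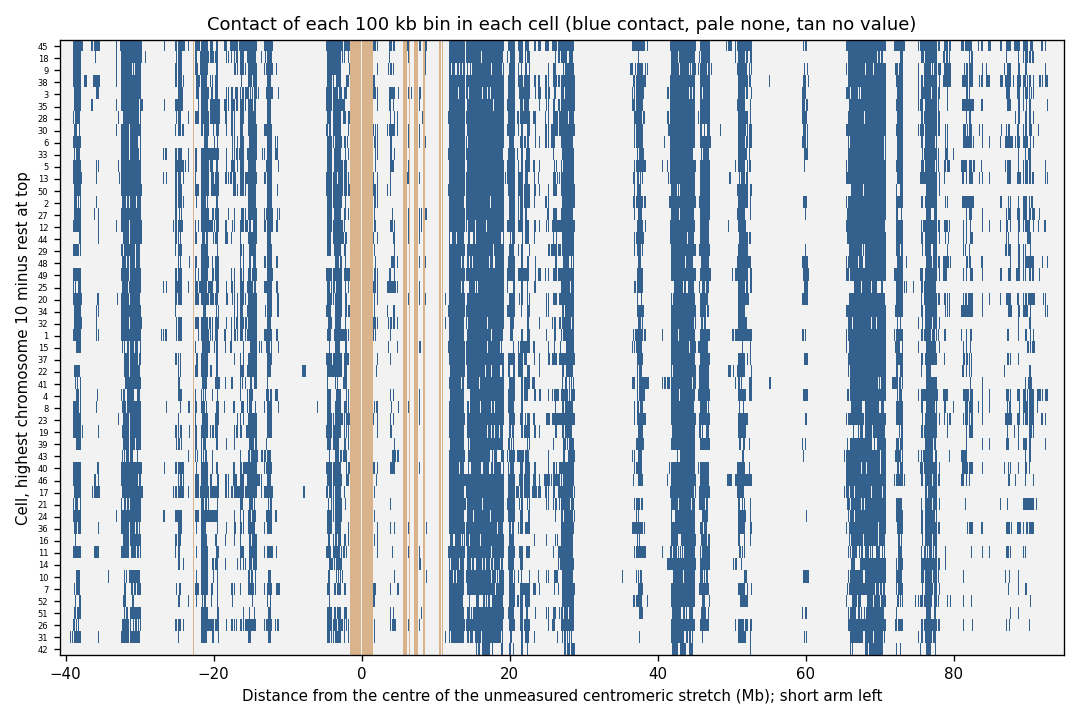
Each row is a cell, ordered by its chromosome 10 share minus that of the rest of its genome, and each column is a 100 kb bin placed by its distance in Mb from the centre of the unmeasured stretch. Blue is contact, pale is none and tan is no value. The widest blocks of the long arm recur in nearly every row, thinner blocks of both arms come and go, and the bottom row, cell 42, is empty on the short arm.

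To follow whole blocks from cell to cell, contact domains were defined as runs of at least 5 bins (0.5 Mb) contacted in at least 50% of cells. This definition was chosen after the data were seen. It gave 22 domains of 0.5 to 5.2 Mb with 33.6 Mb in all, of which 10 lay on the short arm (9.40 Mb) and 12 on the long arm (24.2 Mb). Short arm domains were contacted in 63.5% to 87.1% of their bins on average and long arm domains in 67.5% to 92.5%. The SD over cells was 21.5 to 36.8 points for short arm domains and 9.26 to 32.6 for long arm domains. An average over more bins tends to spread less, and a share near 100% has less room to vary. No short arm domain was longer than 1.5 Mb. Domains of 1.1 Mb had an SD of 26.3 on the short arm and 24.5 on the long arm. Those of 0.7 Mb had 27.5 and 30.4 on the short arm and 29.4 on the long arm. At greater length the arms differed. The short arm domain of 1.5 Mb had an SD of 23.8, and long arm domains of 1.6 and 1.7 Mb had 11.0 and 14.4. The longest domains were among those that varied least. The largest, from 106400001 to 111600000, had 89.7% ± 12.6 and was never below 44.2%. The domain from 82500001 to 85800000 had 92.5% ± 9.26. The short domain from 16000001 to 16500000 had 66.3% ± 36.8, with 21 cells in full contact and 6 with none.

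**Figure D4:**
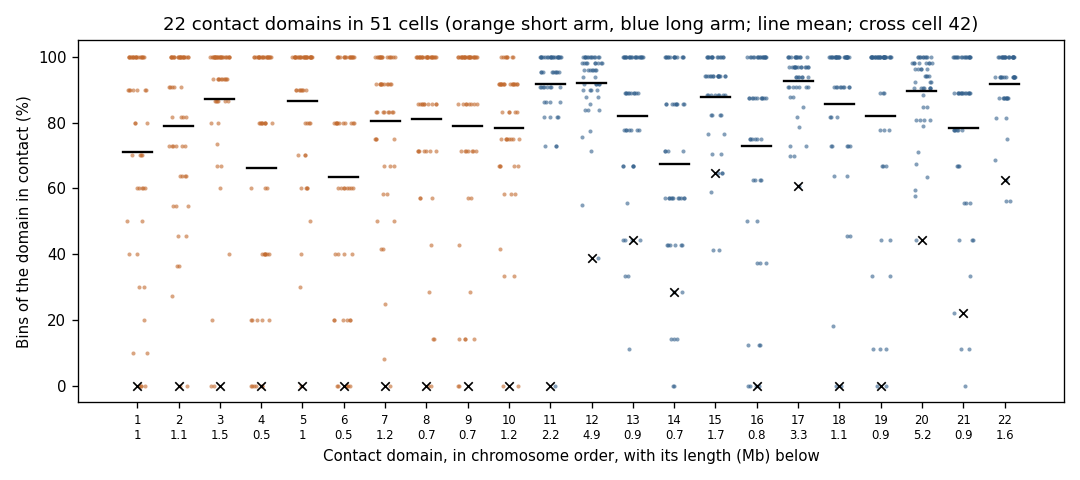
Each column is 1 of the 22 contact domains in chromosome order, with its length in Mb, and each point is a cell's percentage of contacted bins. Lines are means over 51 cells, and crosses mark cell 42. Short arm domains, in orange, spread from 0% to 100%, the long domains of the long arm stay mostly above 60%, and cell 42 lies at 0% in all 10 short arm domains.

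Most cells contacted most domains. In 25 of the 51 cells every domain was contacted in at least 25% of its bins, and in 12 more cells only 1 domain fell below that. Cell 45 was in full contact with 21 of the 22 domains. At the other end, cell 42 was below 25% in 15 domains, all 10 of the short arm and 5 of the long arm. Cell 14 was below it in 7 domains, 4 on the short arm and 3 on the long arm. It had no contact in the domains from 1900001 to 2900000, from 8200001 to 9300000 and from 9400001 to 10900000, but full contact from 19000001 to 20000000. Cell 52 was below 25% in 5 domains, all on the short arm, and was in full contact with none of the 22.

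Domains of the short arm varied together from cell to cell. For each domain the cell's share of contact over all chromosomes other than 10, 11 and 12 was subtracted, and Pearson correlations were taken over the 51 cells. The median r was 0.51 over the 45 pairs of short arm domains, 0.28 over the 66 pairs of long arm domains and 0.27 over the 120 pairs on different arms. Pairs of a chromosome 10 domain and a domain of chromosome 11 had a median of 0.08, and those with chromosome 12 had 0.15. Without cell 42 the medians were 0.43, 0.16 and 0.15 on chromosome 10, 0.08 with chromosome 11 and 0.04 with chromosome 12. The values within the long arm and between the arms thus depended on that 1 cell. With every cell thinned to 50978 reads, the medians on chromosome 10 were 0.46, 0.27 and 0.25.

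Correlations were also set against the distance between domains. Over all pairs on chromosome 10 the median r was 0.43 at under 20 Mb, 0.33 at 20 to 50 Mb and 0.24 beyond 50 Mb, and without cell 42 it was 0.33, 0.20 and 0.11. Nearer pairs thus had the higher values when all pairs were pooled, but 34 of the 62 pairs under 20 Mb lay within the short arm. Within the short arm the medians were 0.51 at under 20 Mb and 0.52 at 20 to 50 Mb, and within the long arm 0.28, 0.33 and 0.21 from near to far. Pairs on different arms had 0.50, 0.31 and 0.25, but only 3 of them were under 20 Mb apart and 77 of the 120 were more than 50 Mb apart. At 20 to 50 Mb, short arm pairs therefore had 0.52 over 11 pairs and pairs on different arms 0.31 over 40. Without cell 42 these were 0.43 and 0.18.

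The comparison chromosomes were treated in the same way. On chromosome 11 the medians were 0.45 within the short arm, 0.20 within the long arm and 0.15 between the arms, and on chromosome 12 they were 0.50, 0.42 and 0.30. Distance differs between these kinds of pairs here too. At under 20 Mb, chromosome 12 had 0.50 within the short arm and 0.46 over 6 pairs on different arms, and chromosome 10 had 0.51 and 0.50. For these kinds of pair the medians of both chromosomes thus lay close together at this distance. Chromosome 11 had 0.49 within the short arm and 0.37 over 4 pairs on different arms. Without cell 42 those of chromosome 10 were 0.44 and 0.22, the second over 3 pairs. Those of chromosome 11 were then 0.49 and 0.33, and those of chromosome 12 were 0.44 and 0.40. Within the long arm the chromosomes were further apart at under 20 Mb. The medians there were 0.28 on chromosome 10, 0.24 on chromosome 11 and 0.55 on chromosome 12. Without cell 42 these long arm medians were 0.16, 0.26 and 0.51. Whether any of these medians differ beyond the spread between cells was not tested.

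The pairs named next were chosen after their values were seen. The highest correlation on chromosome 10 was between the neighbouring domains from 52500001 to 54700000 and from 55000001 to 59900000 (r = 0.74), and it was 0.45 without cell 42. Between the arms, the highest was that of the domain from 9400001 to 10900000 with the domain from 55000001 to 59900000, 47.3 Mb away (r = 0.73, and 0.61 without cell 42). The domain from 8200001 to 9300000 and that from 91600001 to 92500000 lie on different arms, 83.3 Mb apart, and had an r of 0.69, and of 0.63 without cell 42. In contrast, the domains from 62800001 to 63500000 and from 67700001 to 69400000 lie 5.40 Mb apart and had an r of -0.07. With 231 pairs of domains on the chromosome, extremes among them are to be read as a selection.

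**Figure D5:**
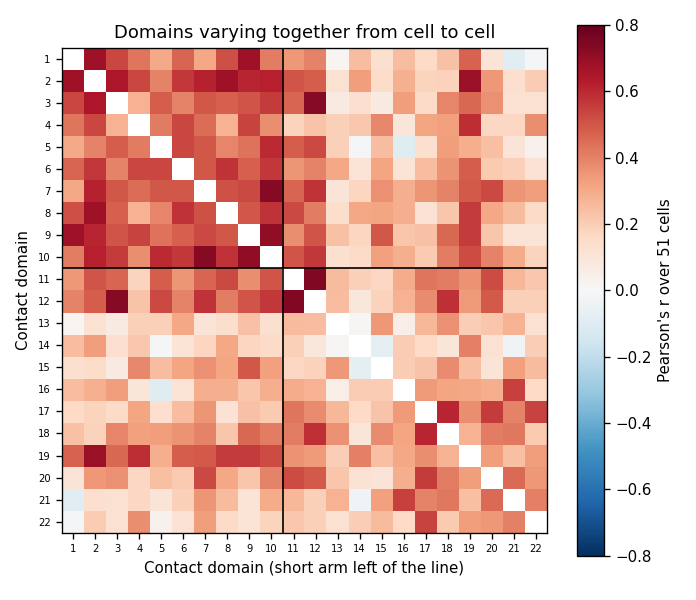
Colours give Pearson's r over 51 cells between the contact shares of the 22 domains, after the cell's share on other chromosomes was subtracted, with black lines between the arms and the diagonal left blank. The upper left block of 10 short arm domains is the most evenly red, with r from 0.28 to 0.73, and domain 19 of the long arm has high values with several of them.

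Signal and frequency went together on the chromosome, as they must in part since both come from the same OE values. Contacted bins had a median OE of 2.81 ± 0.435 (SD, n = 51 cells) in frequent bins and 1.84 ± 0.211 in bins contacted in over 20% and under 80%. The highest OE on the chromosome, 57.8 in cell 51, stood in the bin that starts at 48800001, which came out with an expected number of 1. The smallest whole numbers that fit a bin are taken, so this value may rest on a single read.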

How the data were processed

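Single KBM7 cells were profiled by DamID of Lamin B1. Per the submitters' processing notes, cutadapt and Bowtie2 2.1.0 were used with build hg19. The authors deposited 1 ratio of observed over expected signal for each 100 kb bin and cell. How they obtained the expected signal is not given in the sources used here. Cell 47 was not analysed here.

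Each ratio above 0 could be written as a whole number (reads) over another whole number that belongs to the bin (expected number), scaled by a constant for that cell. Of these values, 100% came out whole within 0.02. The number of each bin was chosen to make its own values whole, so in bins with reads in few cells this outcome was fixed in advance. The highest ratio of reads to expected number was 1. Reads carry no molecular identifiers, and intervals cover counting error only. Recovery was tested on simulated data. So were correlations of domains, but with equal lengths and no subtraction of the share on other chromosomes, which cannot test the comparisons between arms. Python 3.11.15, NumPy 2.4.6, pandas 2.3.3 and SciPy 1.17.1 were used.

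The chromosome, the region classes and the lists were chosen with earlier results of these data known. Named were the 5 longest runs of each of 3 frequency classes, the 5 largest steps at least 1 Mb apart, and the 3 cells at each extreme. Gene lists were drawn up but not used, as hg19 positions were not at hand. Alternatives were thresholds on the OE of 0.5 and 2, a contact call for each cell's highest 30% of bins, omission of bins without reads, expected numbers of at least 100, thinning to 50978 reads, odd-numbered or even-numbered cells, omission of cell 42, and ends and flanks of 2 and 10 Mb. Alternatives for domain correlations were added after the data were seen.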

Additional observations from a re-analysis of the deposited data

How the results depend on the processing

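Of 181 alternative values, 163 kept their direction and stayed within the spread between cells, or moved by less than 1.5 times for counts and correlations. This rule is lenient where cells differ widely. The variable run from 100300001 to 101000000 counted as kept with 10.1% at an OE of at least 2, against 30.8% at an OE of at least 1. Another 17 moved and 1 reversed, as follows. The contact share was 36.4% at an OE of at least 0.5 and 18.2% at an OE of at least 2. At an OE of 2 frequent bins made up 3.90% and the mean run length was 0.341 Mb. The shifts in contact share and frequent bins follow from the threshold itself. Thinning to 50978 reads gave a mean run length of 0.395 Mb. Ends of 2 Mb differed from inner bins by -26.6 points. Flanks of the centromere reversed to 4.10 points at 2 Mb and reached -16.9 points at 10 Mb. For run length, ends and flanks the cause was not tested. The 5 longest frequent runs were contacted over 68.3% to 75.7% at that threshold, and the 3 longest empty runs over 0.637%, 0.761% and 0.471% at an OE of 0.5. Without cell 42 the median domain correlation was 0.16 within the long arm and 0.15 between the arms. The difference from the rest of the genome stayed between -3.00 and -1.90 points, and that of the short from the long arm between -6.38 and -2.58. Depth limits calls of single bins most in cell 9. Groups could not be compared because there is 1 group, and the differences between chromosomes, arms and areas were taken within each cell.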
